A study of Bos grunniens with 6 samples.

Results

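Kinesins are motor proteins that use ATP to move along microtubules or to act on their ends. Transport kinesins carry vesicles, organelles and RNA-protein complexes. Spindle kinesins work at kinetochores and microtubule ends, where they bring chromosomes to the middle of the dividing cell. The 4 kinesin genes followed here are of both kinds, *KIF5C* and *KIF17* for transport and *KIF18A* and *CENPE* for the spindle. *KIF5C* codes for a heavy chain of conventional kinesin, which moves cargo towards microtubule plus ends. *KIF17* codes for a motor of the kinesin-2 family, known from dendrites, cilia and male germ cells, where it binds the coactivator ACT. *KIF18A* codes for a kinesin-8 that dampens the swings of chromosomes at the metaphase plate. *CENPE* codes for the large kinetochore motor that carries chromosomes towards the spindle equator. *KIF5C* was found by its gene ID, and the other genes by the symbols that the study's supplementary tables pair with gene IDs. These 4 genes are of 20953 genes in the deposited expression table. *KIF5C*, *KIF18A* and *CENPE* are named in tables that the study selected on these same testes for a difference between the ages, and *KIF17* in its table of expression differences. The direction of a member's change is therefore not independent evidence.

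The testes came from 6 healthy male yaks (*Bos grunniens*), 3 of them 6 months old and before sexual maturity (Y6M) and 3 of them 30 months old and sexually mature (Y30M). Poly(A) RNA of frozen testis tissue was fragmented, and part of it was precipitated with an antibody against N6-methyladenosine (m6A), a methyl mark on adenosines inside mRNA. The authors gave expression as FPKM, a fragment number corrected for transcript length and sequencing depth, in the input library of each yak, which had no antibody step. Because the tissue is a mixture, more cells of a type and more RNA per cell cannot be told apart.

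The depth of the 6 input libraries, read from the steps between low FPKM values, lay between 0.752 and 1.07 times that of Y30M replicate 1, and Y6M replicate 3 was the shallowest. Of 19477 genes above 0 in at least 1 library, 9080 (46.6%) passed the call for a change between the ages, for which limma on log2(FPKM + 1) had to give an unadjusted p no higher than 0.05 with a fold change no smaller than 1.5. In the direction of higher expression in Y30M, 27.6% of the tested genes passed. The libraries of the groups did not overlap at all for 54.1% of them. A change between these ages was thus common among all genes, and the calls of the members are read beside these shares. The few markers of the supporting cells with a gene ID were lower in Y30M. Marker IDs came from the study's supplementary tables, several of them selected for a difference between the ages. The markers given here therefore do not stand for their cell types. The Sertoli markers *SOX9* and *DHH* (2 of the 6 listed had a gene ID) summed to 53.0 to 84.4 FPKM in Y6M and 20.6 to 38.1 FPKM in Y30M. The Leydig marker *LHCGR* (1 of 6) was 34.4 to 67.3 FPKM in Y6M and 1.44 to 5.37 FPKM in Y30M. In the study's tissue sections, interstitial cells were more numerous in the mature testis. The summed vascular markers (2 of 5) were 14.8 to 22.0 FPKM and 3.69 to 6.95 FPKM. For the spermatocyte markers (3 of 8) the sums were 11.4 to 32.3 FPKM and 17.1 to 79.6 FPKM. Of these 3 genes, 1 passed the call, and 2 with the replicate number as a block. The labels do not say what the replicate numbers share, and pairing was not established, so a block is given only as an alternative. No marker of spermatogonia, spermatids or blood cells had a gene ID. The part of the cell makeup in the values below was not tested.

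*KIF17* showed the widest range of the 4 kinesin genes. Y6M replicates 1, 2 and 3 had 2.20, 2.39 and 0.921 FPKM, and Y30M replicates 1, 2 and 3 had 490, 1177 and 473 FPKM. Every mature library lay far above every juvenile library, and Y30M replicate 2 stood well above the others of its age. The mean rose from 1.84 ± 0.798 to 713 ± 402 FPKM (SD, n = 3 each), a ratio of 388. On the log2(FPKM + 1) scale *KIF17* rose by 7.88 (standard error 0.41, limma, adjusted p = 2.33e-05), with a 95% interval from 6.92 to 8.85, and the gene stood 44th among the tested genes by this value. In the mature testis *KIF17* ranked 130th, 40th and 147th among the genes detected in replicates 1, 2 and 3. In the juvenile testis it ranked between 10687th and 12574th. The values rest on at least 100 fragments in the juvenile library with the fewest and at least 70671 in each mature library.

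*KIF5C* was the most abundant member before maturity and rose less than *KIF17*. Its level was 6.71, 6.27 and 6.98 FPKM in the Y6M libraries and 68.6, 149 and 114 FPKM in the Y30M libraries. The juvenile values were close together, with an SD of 5.37% of the mean, whereas the mature values were spread by 36.3% of the mean, and the groups did not overlap. The mean rose from 6.65 ± 0.358 to 110.4 ± 40.1 FPKM (SD, n = 3 each), a ratio of 16.6. The log2(FPKM + 1) values differed by 3.80 (standard error 0.30, limma, adjusted p = 8.86e-05), with a 95% interval from 3.09 to 4.50. At least 736 fragments lay behind each juvenile value and at least 9634 behind each mature value.

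*KIF18A* was a low gene in juvenile testis, ranked 14826th of 16995, 13443rd of 17295 and 12052nd of 16947 detected genes in replicates 1, 2 and 3. It had 0.148, 0.511 and 1.32 FPKM in the Y6M libraries and 2.16, 2.12 and 5.73 FPKM in the Y30M libraries. The groups did not overlap, but replicate 3 was the highest library at both ages. The lowest juvenile value may rest on as few as 14 fragments, the smallest number that the ratios of the values allow. At 14 fragments the exact Poisson 95% interval is 7.65 to 23.5 (counting error only). The mean went from 0.658 ± 0.598 to 3.34 ± 2.07 FPKM (SD, n = 3 each), a ratio of 5.07. The change was 1.35 on the log2 scale (standard error 0.40, limma, adjusted p = 0.0279), with a 95% interval from 0.42 to 2.28, so the gene passed the call. Without Y6M replicate 1 the log2 fold change was 1.11 and the call was lost (adjusted p = 0.115, limma). With 0.1 in place of 1 added to the FPKM, the log2 fold change was 2.37 and the call was kept (limma, adjusted p = 0.0209), since the added 1 shrinks the change of genes at this level.

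*CENPE* did not pass the call, and its groups overlapped. It had 0.264, 0.487 and 2.15 FPKM in the Y6M libraries and 2.05, 1.31 and 5.0 FPKM in the Y30M libraries. Y6M replicate 3 was above 2 of the 3 mature libraries. The Y6M mean was 0.966 ± 1.03 FPKM and the Y30M mean 2.78 ± 1.95 FPKM (SD, n = 3). The log2 difference was 0.94 (standard error 0.47, limma, adjusted p = 0.145), with a 95% interval from -0.15 to 2.04. Same-numbered libraries came from different yaks, and their pairing was not established. With the replicate number as a block in the model, the log2 difference of 0.94 had a standard error of 0.23 and passed (limma, adjusted p = 0.0149). Without Y6M replicate 3 it was 1.34 and passed by the unadjusted p of 0.0247 (limma, adjusted p = 0.0597). With 0.1 added in place of 1 the difference was 1.67 and did not pass (limma, adjusted p = 0.102). At least 56 fragments lay behind each *CENPE* value.

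**Figure D1:**
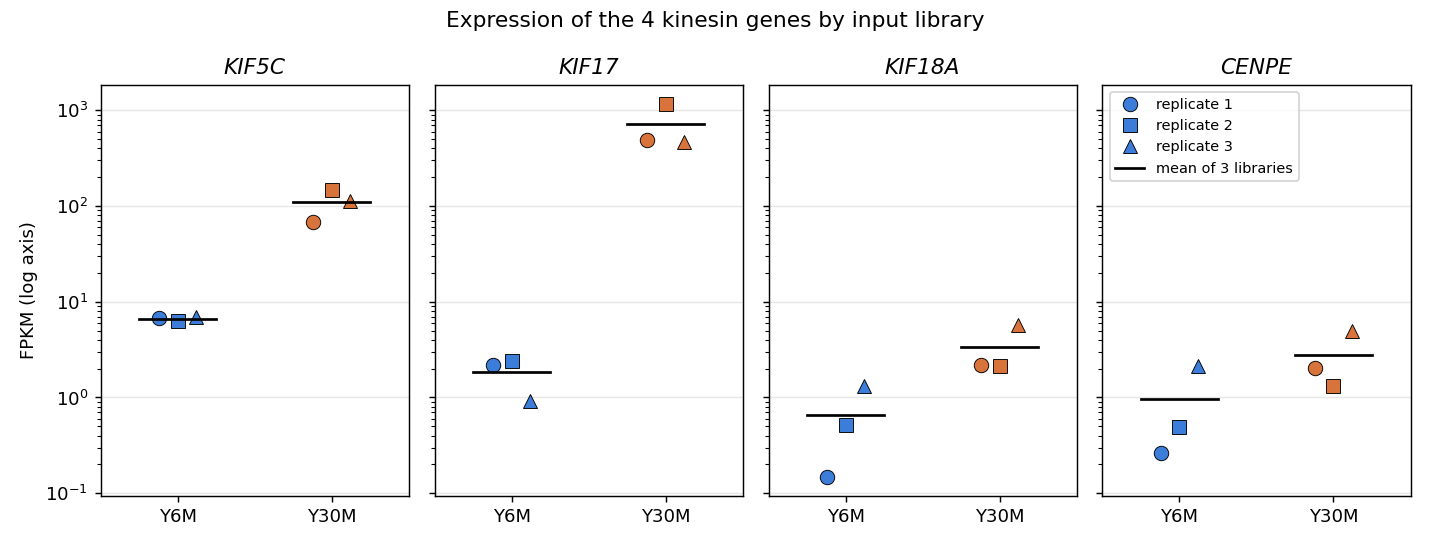
FPKM of *KIF5C*, *KIF17*, *KIF18A* and *CENPE* on a log axis in the 6 input libraries, with Y6M in blue, Y30M in orange, a marker shape for each replicate number and a line at the mean of 3 libraries. The mature *KIF17* values, 473 to 1177 FPKM, lie above all other values shown, and replicate 3 is the highest library at both ages for *KIF18A* and *CENPE*.

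FPKM is scaled by transcript length, so levels can be ordered between genes. In Y6M the order of the mean FPKM was *KIF5C*, *KIF17*, *CENPE* and *KIF18A*. *KIF5C* lay above *KIF17* in every juvenile library without overlap, whereas the values of *KIF17* and *CENPE* overlapped, as did those of *CENPE* and *KIF18A*. In Y30M the order was *KIF17*, *KIF5C*, *KIF18A* and *CENPE*. *KIF17* and *KIF5C* did not overlap with each other or with the spindle members there, and *KIF18A* and *CENPE* overlapped. The transport members thus changed places between the ages. The difference of *KIF17* from *KIF5C* on log2(FPKM + 1) was -1.27, -1.10 and -2.05 in the juvenile libraries and 2.82, 2.98 and 2.04 in the mature libraries.

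The responses of the members were then set against each other within each library. For *KIF17* against *KIF5C* the change between the ages differed by 4.09 on the log2 scale (95% interval 2.94 to 5.23). Within replicate numbers 1, 2 and 3 this difference was 4.09, 4.08 and 4.10, although the 2 genes' own changes ran from 7.26 to 8.44 for *KIF17* and from 3.17 to 4.36 for *KIF5C*. Both transport members changed most in replicate number 2 and least in replicate number 1. Libraries of the same number came from different yaks and pairing was not established, so another matching of libraries would give other differences. Against *KIF18A* and *CENPE*, *KIF5C* rose by 2.45 (95% interval 0.98 to 3.91) and 2.85 (1.00 to 4.70) more. Against the same genes *KIF17* rose by 6.53 (4.08 to 8.98) and 6.94 (4.09 to 9.78) more. *KIF18A* and *CENPE* differed from each other by 0.41, with an interval from -0.09 to 0.90 that includes 0. In each of the 6 pairs the mature libraries did not overlap the juvenile ones, and the exact two-sided permutation p was 0.1, which is the smallest that 3 against 3 libraries allow (adjusted over the 6 pairs, 0.1). No pair could therefore reach 0.05. With 0.1 added in place of 1, *KIF5C* rose by 1.6 more than *KIF18A*, the groups of this pair overlapped and the exact permutation p was 0.2, while the other pairs stayed at 0.1.

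The mean of the transport members minus the mean of the spindle members gave 1 value for each library. It was 2.04, 1.73 and 0.536 on the log2(FPKM + 1) scale in the Y6M libraries and 5.90, 7.29 and 5.20 in the Y30M libraries. Replicate 3 had the smallest value at both ages. The contrast averaged 1.44 ± 0.79 in Y6M and 6.13 ± 1.06 in Y30M (SD, n = 3 each), a difference of 4.69 with a 95% interval from 2.56 to 6.82 (exact two-sided permutation p = 0.1). Within replicate numbers 1, 2 and 3, which join different yaks, the difference between the ages was 3.85, 5.56 and 4.66.

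**Figure D2:**
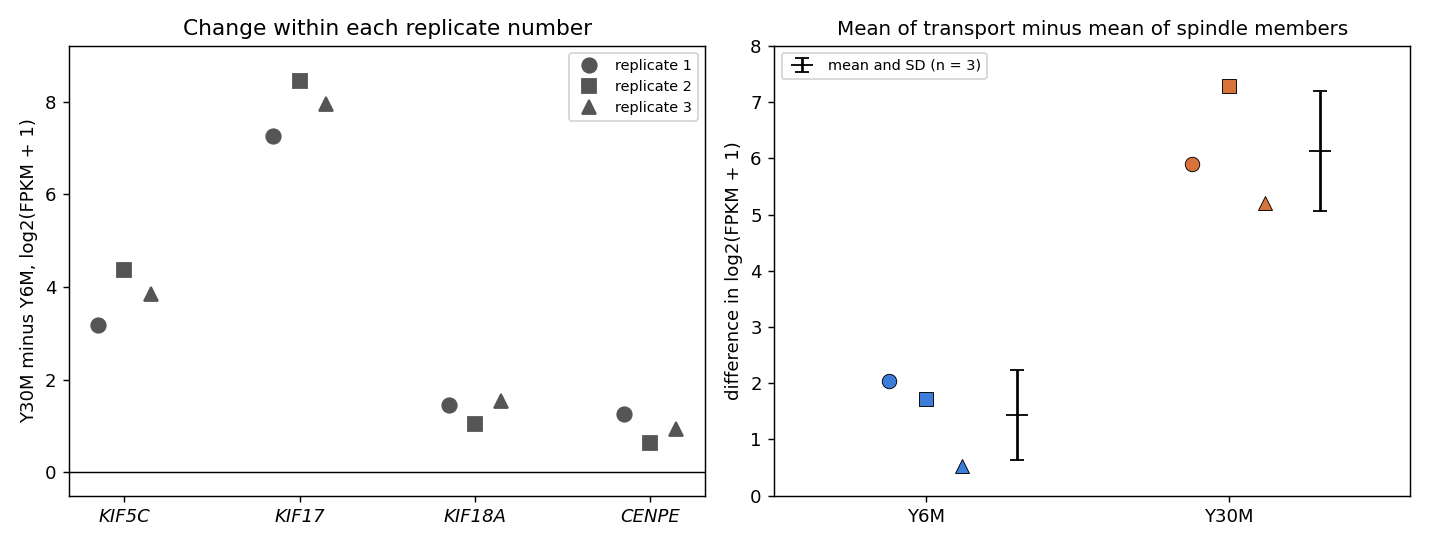
Left, the Y30M minus Y6M difference in log2(FPKM + 1) of each member within each replicate number, and right, the mean of *KIF5C* and *KIF17* minus the mean of *KIF18A* and *CENPE* in each library, with blue for Y6M, orange for Y30M and the mean and SD beside the points. *KIF5C* and *KIF17* share their order of replicate numbers, and the contrast on the right is at most 2.04 in Y6M and at least 5.20 in Y30M. Libraries of the same number came from different yaks, and pairing was not established.

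Both *KIF18A* and *CENPE* were highest in replicate 3 of Y6M and of Y30M. *KIF5C* was highest in replicate 3 of Y6M, by a small margin, and in replicate 2 of Y30M, and *KIF17* was highest in replicate 2 at both ages. Over all tested genes, 26.5% had their highest value in replicate 3 at both ages. All 3 spermatocyte markers (*SYCP3*, *HORMAD1* and *MLH3*) did so, as did *TTK* and *CENPF* among the 3 kinetochore genes with an ID. The Leydig marker *LHCGR*, the adaptor *TRAK2* and the intraflagellar transport gene *IFT74* did so too. None of the Sertoli and vascular markers with an ID did. The proliferation marker *MCM2*, a subunit of the replicative helicase, did not. It had 24.5 to 30.4 FPKM in Y6M and 30.1 to 84.5 FPKM in Y30M, and blocking by replicate number turned it from not called (limma, adjusted p = 0.101) to called by the unadjusted p of 0.0391 (limma, adjusted p = 0.0710). The part of the marker levels and of the replicate number in these values was not tested. Same-numbered libraries came from different yaks, and their pairing was not established.

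The wider kinesin family was described from lists of transport and spindle motors. Gene IDs for most of these came from the study's table of peaks that differed between the ages, and for *KIF1A*, *KIF17* and *IFT74* from its table of expression differences, so the counts do not stand for the whole lists. Of 16 listed transport motors 6 had a gene ID and all 6 passed the call, 4 of them higher and 2 lower in Y30M. Their median log2 fold change, with *KIF17* and *KIF5C* among them, was 2.42 beside 0.04 for all tested genes. Of the 4 motors outside the members, *KIF21B* and *KIF1A* rose, and *KIF1C* and *KIF13A* fell. Of all tested genes 46.6% passed, and 27.6% passed with higher expression in Y30M. After *KIF17* and *KIF5C* came *KIF21B*, a kinesin-4 motor of neurons and immune cells. Its juvenile libraries had 2.79, 3.47 and 3.54 FPKM and its mature ones 28.0, 99.6 and 31.1 FPKM, with replicate 2 the highest as for *KIF17* and *KIF5C*. The change was 3.42 on the log2 scale (standard error 0.48, limma, adjusted p = 0.00113). *KIF1A*, which carries synaptic vesicle precursors in axons, had a mean of 0.806 FPKM in Y6M and 3.85 FPKM in Y30M (log2 fold change 1.42, limma, adjusted p = 0.00743). The falls were in *KIF1C*, from 35.8 to 10.5 FPKM (log2 fold change -1.73, limma, adjusted p = 0.00343), and in *KIF13A*, from 12.4 to 3.88 FPKM (log2 fold change -1.48, limma, adjusted p = 0.00409). *KIF1C* and *KIF13A* act in the transport of vesicles in many cell types. The highest transport motor of the juvenile testis among those with an ID was *KIF1C*, and of the mature testis *KIF17*.

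Of 15 listed spindle motors 3 had a gene ID, and 2 of them passed the call, both higher in Y30M, where 27.6% of all tested genes did so. The third was *CENPE*, and with the replicate number as a block, a pairing that was not established, all 3 passed. The one beside the members was *KIF14*, a motor of the midbody needed to finish cytokinesis. It rose from a mean of 0.925 to 3.98 FPKM by 1.38 on the log2 scale (standard error 0.28, limma, adjusted p = 0.00624), and replicate 1 was its highest mature library. The summed level of the 3 spindle motors was 0.955 to 4.28 FPKM in Y6M and 6.53 to 14.6 FPKM in Y30M, against 52.8 to 65.1 FPKM and 611 to 1440 FPKM for the 6 transport motors. Most of the transport sum was *KIF1C* in Y6M (28.2 to 40.6 FPKM) and *KIF17* in Y30M (473 to 1177 FPKM). The sums therefore do not stand for the other transport motors.

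The spindle members work with kinetochore and checkpoint proteins, of which 3 of 20 listed had a gene ID. All 3 rose, beside 27.6% of all tested genes. *TTK*, the checkpoint kinase MPS1, went from a mean of 0.661 to 7.21 FPKM (log2 fold change 2.10, limma, adjusted p = 0.0156). *CENPF*, a kinetochore protein that binds microtubules, went from 2.19 to 9.05 FPKM (log2 fold change 1.66, limma, adjusted p = 0.0345). *CDCA8*, the borealin subunit of the chromosomal passenger complex, went from 3.80 to 17.9 FPKM (log2 fold change 1.98, limma, adjusted p = 0.00271). Of the partners of the transport members, *TRAK2* (1 of 8 listed KIF5 light chains and adaptors), which links mitochondria to kinesin-1, fell from 11.6 to 4.51 FPKM (log2 fold change -1.22, limma, adjusted p = 0.0363). *IFT74* (1 of 16 KIF17 partners and intraflagellar transport proteins) did not pass the call, with 6.03 FPKM in Y6M and 16.5 FPKM in Y30M (log2 difference 1.20, limma, adjusted p = 0.129). When the replicate number was a block, a pairing that was not established, *IFT74* passed (limma, adjusted p = 0.00833). *KIF26A*, an atypical kinesin without ATPase activity and the only listed other kinesin with an ID (of 6), fell from 4.01 to 1.97 FPKM (log2 fold change -0.78, limma, unadjusted p = 0.0325, adjusted p = 0.0683). None of the 6 axonemal and ciliary kinesins had a gene ID.

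**Figure D3:**
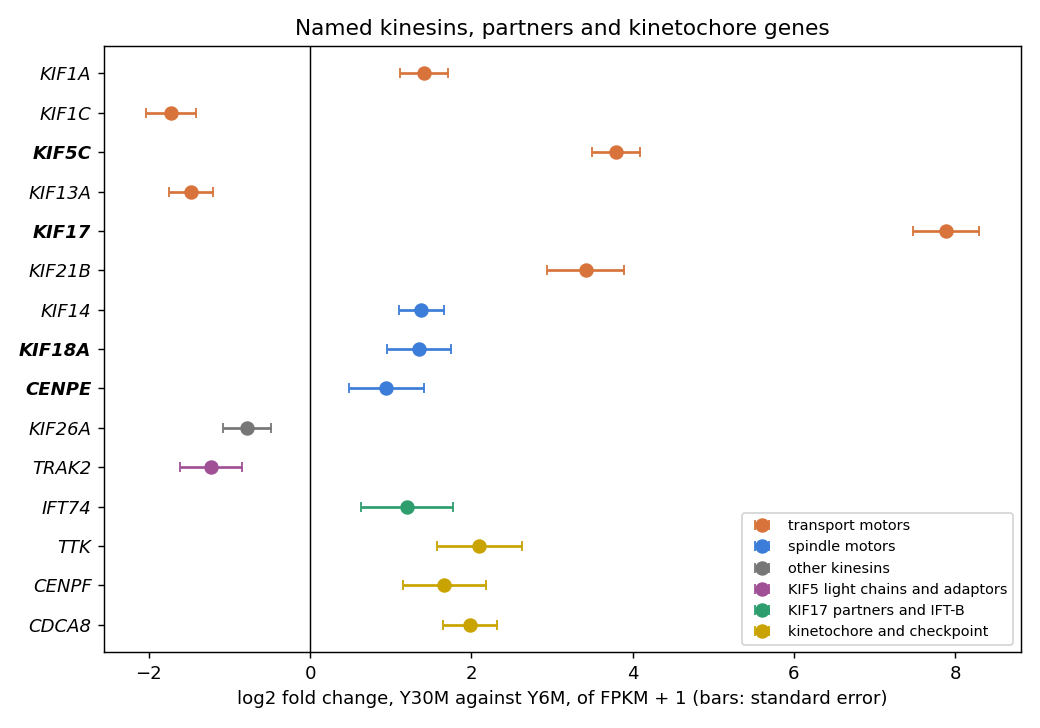
Log2 fold change of Y30M against Y6M on the log2(FPKM + 1) scale for the listed kinesins, adaptors and kinetochore genes with a gene ID, coloured by list, with bars for the limma standard error and the 4 kinesin genes in bold. *KIF17* (7.88) and *KIF5C* (3.80) lie to the right of *KIF18A* (1.35) and *CENPE* (0.94), and *KIF1C* (-1.73) and *KIF13A* (-1.48) lie below 0.

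The genes whose pattern was most like that of each member were searched among the 2137 other tested genes with a symbol, by the Euclidean distance of log2(FPKM + 1) over the 6 libraries. For *KIF17* the nearest was *GSG1*, a gene known from germ cells, at a distance of 1.18, with 0.861 FPKM in Y6M and 768 FPKM in Y30M on average. *GTSF1*, a gene of the piRNA pathway, at 2.32, and *SPATA6*, at 2.51, followed. *SPATA6* codes for a protein of the sperm neck. For *KIF5C* they were *LRRC8B* (1.05), a subunit of volume-regulated anion channels, *BAG5* (1.30), a co-chaperone, and *SPATS2* (1.30). For *KIF18A* they were *STIL* (0.560), a centriole duplication gene, *CCDC18* (0.645) and *CENPE* (0.661). For *CENPE* the nearest was *KIF18A*, followed by *STIL* (0.820) and *BMPR1B* (0.891), a receptor of bone morphogenetic proteins. The spindle members were thus among each other's 3 nearest named genes, and the transport members were not. These distances describe 6 libraries, and low genes lie closer together on this scale than high ones. The level itself enters the distance, so *KIF5C* and *KIF17* are set apart by their unlike levels in Y30M. The named genes came from the study's tables, several of them selected for a difference between the ages.

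The m6A data of the members come from the authors' table of compared peaks, in which a peak is a stretch of transcript where the precipitated fragments exceed the input. The peaks were called over the libraries of both ages, so they carry no replicate error. The 4 kinesin genes had 13 peaks, 8 on *CENPE*, 3 on *KIF5C*, 2 on *KIF18A* and 0 on *KIF17*. Their order was not the order of expression. *KIF17*, the highest member in Y30M, had no peak in the table, and *CENPE*, the lowest there, had the most. Positions are given in LU_Bosgru_v3.0, counted from 1, and the span of a peak includes the introns that part its exon blocks.

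On *CENPE* (chromosome 6, minus strand) the peaks lay between 105109395 and 105154206 and were made of 2 to 4 exon blocks each. In the direction of transcription, the first peak (105153648 to 105154206) had a fold enrichment of 3.20 over 299 bp of exon. The next (105142758 to 105146881) had 3.28 over 398 bp. The strongest was at 105138084 to 105138579, with a fold enrichment of 4.54 over 299 bp, higher than 98.0% of all peaks in the table. Its neighbour at 105138679 to 105138978 had the weakest enrichment of the gene, 1.46. The peaks at 105142336 to 105142609, 105135760 to 105137556 and 105125067 to 105131828 had values of 1.87, 2.60 and 2.17. The last peak (105109395 to 105111201) had 1.80. Together the blocks held 2690 bp of exon, and the FDR of the enrichment lay between 0.000282 and 0.00398 in all 8 peaks. The strongest and the weakest peak shared the FDR of 0.000282, so the FDR did not follow the enrichment of the single peak.

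On *KIF18A* (chromosome 13, minus strand) the peaks were far apart. The first in the direction of transcription (9602914 to 9610044) had 2 blocks with 149 bp of exon and a fold enrichment of 2.52. The second (9570719 to 9570965) was a single block of 247 bp with a fold enrichment of 3.0. Both had the same FDR of 1.48e-05, the lowest of the members, at unlike fold enrichments. Both values lie above the median fold enrichment of all 16318 peaks, which is 2.31.

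On *KIF5C* (chromosome 2, plus strand) 1 of the 3 peaks had an FDR of at most 0.05. It was the first (98116785 to 98127457), with 298 bp of exon, a fold enrichment of 2.78 and an FDR of 0.00195. The second peak (98135494 to 98164165) was the longest of the members, with 10 exon blocks and 1241 bp of exon. Its fold enrichment was 2.84 but its FDR was 1. The third (98167244 to 98168507) had a fold enrichment of 1.65 over 249 bp, lower than most peaks of the table, and an FDR of 1. Among all peaks 69.0% had an FDR of at most 0.05, and among those of the members 11 of 13.

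**Figure D4:**
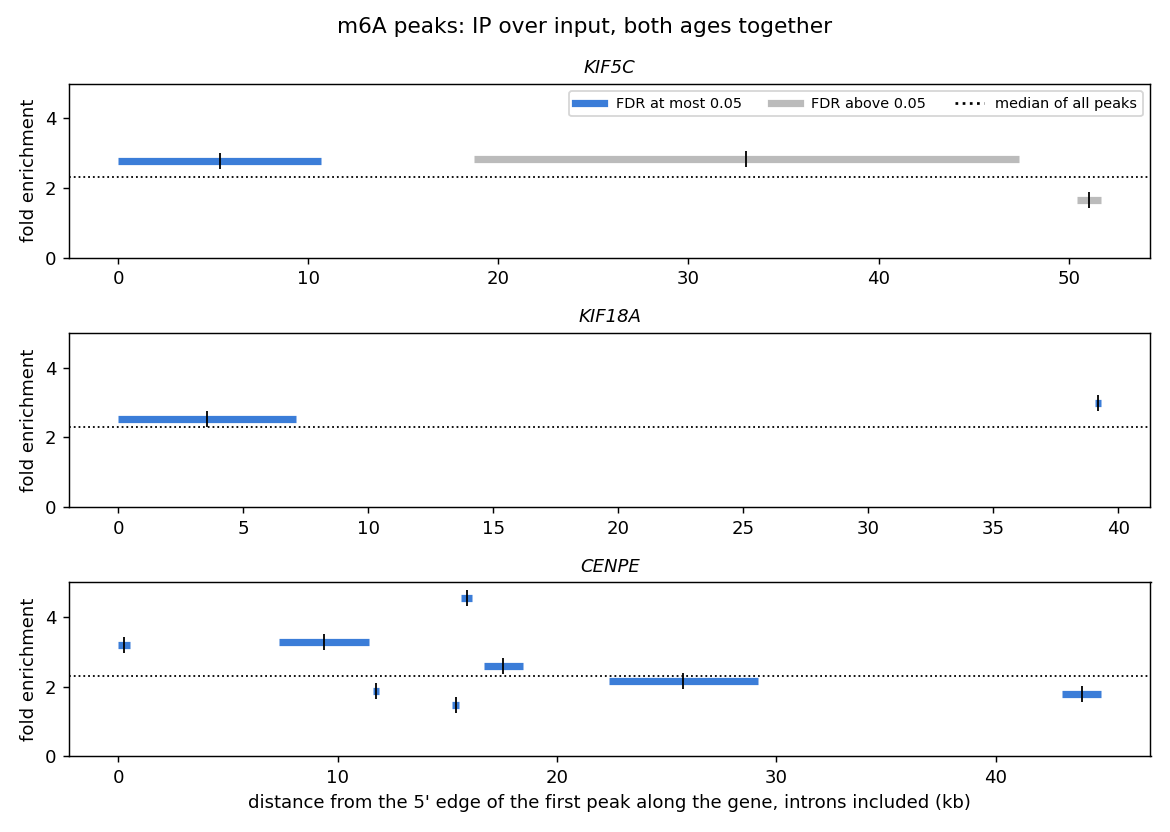
Fold enrichment of the precipitated over the input fragments for the peaks of *KIF5C*, *KIF18A* and *CENPE*, plotted against the distance in kb from the 5′ edge of each gene's first peak with introns included, where a bar spans a peak, a tick marks its middle, blue stands for an FDR of at most 0.05, grey for a higher one and the dotted line for the median of all peaks (2.31). All 8 *CENPE* peaks and both *KIF18A* peaks are blue, and 2 of the 3 *KIF5C* peaks are grey. *KIF17* had no peak.

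Peak numbers as high as that of *CENPE* were rare. A gene with a peak had a median of 1, and 37 genes (0.420% of those with a peak) had 8 or more. Among the 6714 genes at or below the mean of *CENPE* over the 6 libraries (1.87 FPKM) and above 0, 13.9% had any peak, and *CENPE* itself was the 1 gene with 8 or more. Both limits are values of *CENPE*, so that it meets them follows from their choice. The study names *CENPE*, *KIF5C* and *KIF18A* for a differing m6A peak, so that each has a peak follows from their choice. The genes set beside *CENPE* were not chosen in this way. Transcript lengths were not used here, so the number of peaks per length of transcript is not given. At the upper end, *KIF17* was like most genes of its level in having no peak. Of the 78 genes with a mature mean of at least that of *KIF17*, 14 (17.9%) had a peak, against 41.2% of all genes in the expression table.

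Within the peaks of each age the authors scored single adenosines for how likely they are to be methylated, from 0 to 1, and called those at 0.528 or above m6A sites. The list of Y6M covered all members' chromosomes, and that of Y30M was used for chromosomes 1 and 2, which include *KIF5C*. The scores of the lists were nearly the same where they could be compared. Of the 765 adenosines of *KIF5C* in both lists, 98.8% had the identical score in both, so a score is no measure of a change in methylation.

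For *KIF5C* the peaks of the ages differed in their extent. In Y30M there were 3 peaks with the same ends as in the table of compared peaks. In Y6M the first and the second of these lay inside a single peak of 58823 bp (98105343 to 98164165), and the third peak was identical. In the exon blocks 48 adenosines were scored in Y6M and 28 of them (58.3%) were called sites, and in Y30M 25 of 47 (53.2%). The lists differed only in the blocks that start at 98116785 (4 sites in Y6M, 2 in Y30M) and 98135494 (4 and 3). The first and the second Y30M peak begin at these blocks. Outside the blocks the share was 16.7% in Y6M and 17.5% in Y30M. The blocks are those of the compared peaks. In Y6M, any exons of the long peak from 98105343 up to the block at 98116785 therefore count as outside. Over all peaks of the whole Y6M list, 41.0% of the scored adenosines in exon blocks were called sites, against 20.6% elsewhere. In Y30M, on chromosomes 1 and 2 only, the shares were 37.9% and 18.9%, so the lists cover unlike sets of peaks. The adenosine with the highest score in exon blocks was at 98137861 in both lists (0.720), in the second peak of the compared table. An equal score was given in Y6M at 98132813, between the blocks. In the first Y30M peak the highest score was 0.679 at 98121375, also between the blocks. In the third peak it was 0.615 at 98168355 in both lists, inside an exon block.

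In the Y6M list *CENPE* had 2 peaks, both inside peaks of the compared table, and *KIF18A* had none. In the *CENPE* peak at 105129318 to 105131828, 2 of 63 scored adenosines were called sites, and the highest (0.623, at 105130589) lay between exon blocks. In that at 105138233 to 105138579, 0 of 6 were, and the highest score was 0.384 at 105138337. Of the 5 adenosines in the exon blocks of *CENPE* none was called a site. The lists name no strand, so whether adenosines of a minus-strand gene were scored on its own strand is not known. The Y30M lists of *CENPE* and *KIF18A* were not analysed here.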

How the data were processed

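RNA of 6 yak testes was analysed, 3 per age. Per the study's methods and the submitters' processing notes, the authors trimmed reads with Trimmomatic, removed ribosomal RNA with SortMeRNA and aligned reads with HISAT2 to LU_Bosgru_v3.0. Their deposited files hold FPKM per gene and input library (the tool is not given in the sources used here). The deposited peak table of MeTDiff holds a p-value, an FDR and a fold enrichment ratio of precipitated over input fragments for each peak, with both ages together. The authors' site lists hold a prediction score per adenosine, made once per age. The peak table also holds the authors' columns of the difference between the ages, which were not used. Peak and site positions were counted from 0 in the files and are given from 1.

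Symbols came from the study's supplementary tables, which paired 2141 of 20953 gene IDs with 1 symbol. Expression was tested with limma 3.58.1 in R 4.3.3 on log2(FPKM + 1), with variances trended on the mean, over 19477 genes above 0 in at least 1 library, with Benjamini-Hochberg adjustment. The test was checked on simulated data. Intervals of limma come from the same fit, and those of the pairs from the pooled spread of the 2 groups. Exact permutation tests used scipy 1.17.1. Whole fragments behind a value were taken as the smallest whole numbers (tolerance 0.002) in the ratio of the 6 depth-scaled FPKM values, so true numbers may be multiples of these. Of 1538 genes tried, 95.8% gave such numbers. Relative depth was 0.752 to 1.07, and intervals on fragments cover counting error only.

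Deviations of same-numbered libraries from the group means had correlations of 0.209, 0.283 and 0.604 for numbers 1, 2 and 3. Replicate 1 correlated more with another number (0.322), and each library came from a different yak. Pairing was thus not established, and the main fit used no block. The labels do not say what the numbers share.

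The genes named are the 4 kinesin genes, up to 2 rises and 2 falls per list of kinesins and partners among called genes without overlap, and the 3 nearest named genes of each member. *CENPF* (a rise beyond the 2 of its list), *IFT74*, the marker genes with values and the set of genes like *KIF17* among the other observations were added after their values were seen. The members and lists were chosen with earlier results of these data known. Alternatives were another pseudocount, filters, scalings, thresholds, the replicate block, leaving out each library and, added after the data were seen, a variance without a trend. No genome sequence was used here.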

Additional observations from a re-analysis of the deposited data

How the results depend on the processing

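*KIF5C* and *KIF17* kept their direction and their call under all 15 alternatives. *KIF18A* lost its call without Y6M replicate 1 and kept it otherwise, but its adjusted p was also above 0.05 with no filter (limma, 0.0607) and without Y6M replicate 2 or any Y30M library (limma, 0.0508 to 0.0983). The pseudocount of 0.1 gave 2.37 for *KIF18A*, 1.67 for *CENPE* and 1.6 for *KIF5C* minus *KIF18A* (main values 1.35, 0.94 and 2.45). *CENPE* passed with genes of a mean FPKM of at least 1 (0.94, unadjusted p of 0.0493, limma, adjusted p = 0.0792), with TPM (1.24, unadjusted p of 0.0479, limma, adjusted p = 0.0932), with the replicate block (0.94, limma, adjusted p = 0.0149) and without Y6M replicate 3, and its adjusted p lay above 0.05 in all of these but the block. Leaving out each library gave log2 fold changes of 3.55 to 4.10 for *KIF5C*, 7.45 to 8.11 for *KIF17*, 0.98 to 1.62 for *KIF18A* and 0.55 to 1.34 for *CENPE*. It gave 1 to 3 called spindle motors (1 without Y6M replicate 1, 3 without Y6M replicate 3) and 6 transport motors, and 4.11 to 5.16 for the contrast of transport and spindle members. The replicate block changed no other call of the members, and with it the sign-flip p of the contrast (4.69) was 0.25, the smallest that 3 pairs allow. At a score of at least 0.6 the sites in *KIF5C* exon blocks numbered 11 in Y6M and 9 in Y30M. The median log2 fold change of all tested genes was 0.04, and 0.13 with the smaller pseudocount of 0.1, 0.13 with the mean filter and 0.11 with TPM. The precision of the juvenile *KIF18A* value in replicate 1 is limited if it rests on as few as 14 fragments, whereas replicate 3, the shallowest library, had the highest juvenile values of *KIF18A* and *CENPE*.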

Other observations

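Peaks were also found on most of the other motors with a gene ID. *KIF13A* had 6, *KIF21B* 5, *KIF14* 4, and *KIF1C* and *KIF26A* 3 each, whereas *KIF1A*, like *KIF17*, had 0. These 5 received their symbols from the study's table of differing peaks, so having a peak follows from how they were named. *KIF1A* and *KIF17* received theirs from the table of expression differences. Among the kinetochore genes *CENPF* had 7 peaks, and *TTK* and *CDCA8* had 2 each, and these were named from the same table of peaks.

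A peak was also rare among genes with levels like those of *KIF17*. Of 46 genes with a mature mean within 2-fold of that of *KIF17* and a juvenile mean under 5 FPKM, 1 (2.17%) had a peak in the table, against 19.5% of the 205 genes within 2-fold of its mature mean at any juvenile level. The limits of these sets were chosen after the values of *KIF17* were seen. Peaks were called over both ages together, and peaks called within Y30M alone were not analysed here for *KIF17*.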
